A study of Mus musculus with 6 samples.

Results

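Meiosis is the division that makes haploid germ cells, and the 10 genes described here encode parts of its machinery. The genes are Sycp1, Sycp2, Sycp3, Smc1b, Stag3, Rec8, Dmc1, Hormad1, Dazl and Stra8. They were taken by name, and each was read from the brightest probe set that the array annotation gives to that gene alone. All 10 were measured, among 19938 genes in all. The 10 symbols matched 11 probe sets, since Hormad1 has 2.

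Total RNA of mouse induced pluripotent stem cells (iPSCs) was hybridised to 6 Affymetrix arrays, 3 labelled Naive-mPSC and 3 labelled Primed-mPSC. Naive cells were grown in DMEM with 15% fetal bovine serum, non-essential amino acids, glutamine, pyruvate, mercaptoethanol and 1000 U/ml of LIF, the leukaemia inhibitory factor. Primed cells were grown in medium conditioned by mouse embryonic fibroblasts with basic FGF at 8 ng/ml, on feeder cells or matrigel. Neither a genotype nor a strain, sex or passage is given, and no other treatment is named. By their titles the naive cells came from embryonic and the primed cells from adult dermal fibroblasts, while the source label names embryonic fibroblasts for every array, so that culture state and cell of origin cannot be told apart. The titles call the arrays biological replicates without naming what was repeated, so p-values measure the spread between these arrays, which may be technical.

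In germ cells, cohesin complexes with meiosis-specific subunits (among them SMC1B, STAG3 and REC8) hold sister chromatids on a protein axis built with SYCP2, SYCP3 and HORMAD1. The transverse filament protein SYCP1 zips paired homologous axes into the synaptonemal complex, and the recombinase DMC1 carries out strand exchange between homologues. DAZL, an RNA-binding protein, makes germ cells competent for meiosis, and STRA8, induced by retinoic acid, drives entry into it. In pluripotent and somatic cells many of these genes are known to be held silent by DNA methylation and by a Polycomb complex that contains E2F6, MGA and MAX.

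Of the 10 genes, 3 differed between the groups. Sycp3 and Dmc1 were higher in naive cells, Rec8 was higher in primed cells, and the other 7 did not pass the test. Every difference is given as primed minus naive, in log2 units of the deposited RMA values (robust multi-array average), and was tested with limma at an adjusted p of 0.05 over all genes. By the same rule 22.7% of all genes were higher in naive and 21.8% higher in primed cells, so the members' counts of 2 and 1 lie near or below these shares. The median difference was -0.03 over the 10 genes and -0.0015 over all genes. The median size was 0.04 over the 10 genes and 0.14 over all genes. When each array was centred on its median over the genes tested, all genes split into 3439 higher in primed and 6325 higher in naive, against 4347 and 4529 without centring, and the members' counts were again 2 and 1. Quantile normalization turned this split to 5011 with the higher level in primed and 4092 with the higher level in naive cells, with 2 members in each direction.

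The promoters of the 3 genes that differed are shown because Sycp3 and Dmc1 differed in the same direction and Rec8 in the other. Each window runs from 250 bases before to 50 bases after the start of transcription, 5′ to 3′ along the gene, and comes from RefSeq on GRCm38.p6. Capitals mark TCCCGC, the core letters of an E2F6-type site, and CACGTG, an E-box of the kind that MAX dimers bind, searched on both strands. In these windows the motifs do not overlap. The Sycp3 window is chr10:88459337-88459636, plus strand. The Rec8 window is chr14:55617916-55618215, plus strand. The Dmc1 window is chr15:79605060-79605359, minus strand.
Sycp3: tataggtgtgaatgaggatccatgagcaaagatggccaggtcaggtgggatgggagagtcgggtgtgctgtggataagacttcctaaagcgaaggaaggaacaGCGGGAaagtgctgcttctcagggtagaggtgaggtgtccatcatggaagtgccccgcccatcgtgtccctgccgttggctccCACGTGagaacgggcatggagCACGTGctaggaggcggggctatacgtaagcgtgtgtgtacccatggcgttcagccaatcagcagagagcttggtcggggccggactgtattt
Dmc1: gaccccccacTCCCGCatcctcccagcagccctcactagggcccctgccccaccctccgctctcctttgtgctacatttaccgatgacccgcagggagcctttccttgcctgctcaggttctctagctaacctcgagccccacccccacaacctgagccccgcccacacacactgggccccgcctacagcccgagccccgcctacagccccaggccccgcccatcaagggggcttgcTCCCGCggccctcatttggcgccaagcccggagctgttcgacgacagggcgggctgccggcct
Rec8: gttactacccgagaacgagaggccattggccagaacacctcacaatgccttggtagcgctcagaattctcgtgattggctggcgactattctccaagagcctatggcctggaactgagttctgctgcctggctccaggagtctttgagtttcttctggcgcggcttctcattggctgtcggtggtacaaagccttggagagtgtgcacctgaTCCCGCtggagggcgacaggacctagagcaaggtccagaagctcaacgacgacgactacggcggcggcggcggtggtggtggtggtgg

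Sycp3 carried 1 E2F6-type core, 147 bases before the start, and 2 E-boxes, at 64 and 43 bases before it. Dmc1 carried 2 E2F6-type cores, at 240 and 13 bases before the start, and Rec8 carried 1, at 38 bases. Neither Dmc1 nor Rec8 held an E-box in this window. All 10 genes had a promoter window. At least 1 E2F6-type core was found in 7 of the 10 genes (Sycp1, Sycp3, Smc1b, Stag3, Rec8, Dmc1 and Hormad1), against 20.0% of 32851 promoter windows. An E-box was found in 4 genes (Sycp1, Sycp3, Stag3 and Hormad1), against 7.15% of windows. The windows of the members also held more CpG dinucleotides than the median window, 10 to 30 against 7. TCCCGC and CACGTG each contain 1 CpG. Genes with a core lay on both sides of the comparison and among those that did not pass.

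To say which genes were near background, the level on each array was set against 1194 olfactory and vomeronasal receptor genes, which are not known to act in pluripotent cells. Their 95th percentile lay between 6.96 and 7.02, and this percentile served as the cutoff of an array. A gene was called in background in a group when the 3 arrays of that group were all below their cutoffs. Sycp1, Sycp2, Smc1b, Dazl and Stra8 were in background in both groups, 5 of 10 genes, against 26.9% of all genes. Dmc1 and Sycp3 were in background in primed cells only by this rule. Rec8, Stag3 and Hormad1 were above the cutoff on all 6 arrays. At the 99th percentile of the receptor genes (7.71 to 7.91) 8 members were in background in both groups, leaving Rec8 and Hormad1, the latter on 1 array alone. RMA compresses differences of dim probe sets, so failing the test in background does not show that a gene was unchanged.

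**Figure D1:**
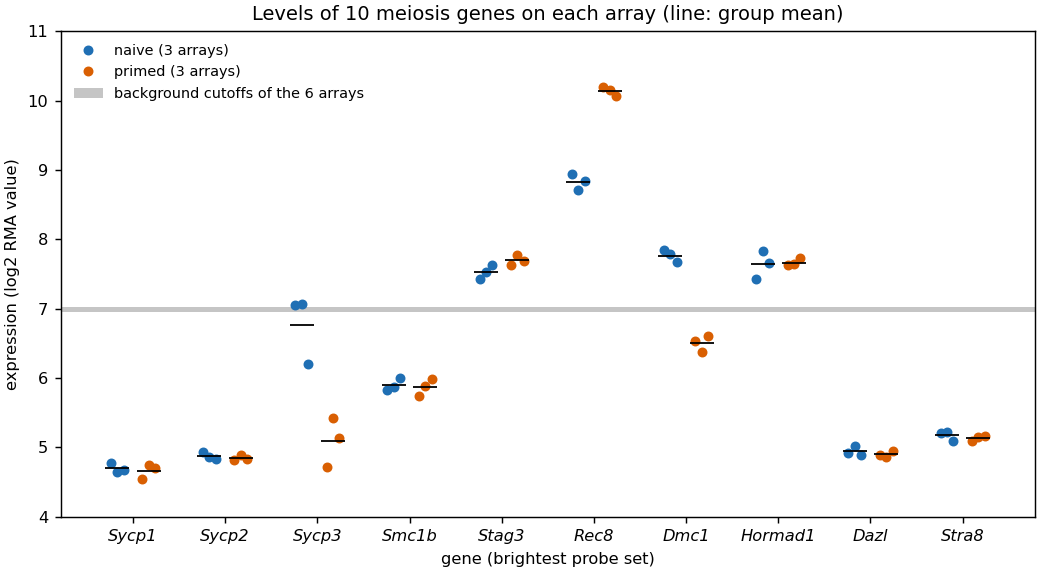
Log2 RMA value (vertical axis) of each meiosis gene (horizontal axis) on the 3 naive arrays (blue) and 3 primed arrays (orange), with group means as black lines and the range of the 6 background cutoffs (6.96 to 7.02) as a grey band. Sycp3 and Dmc1 drop from naive to primed, Rec8 rises, and 5 genes lie below the band on every array.

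**Figure D2:**
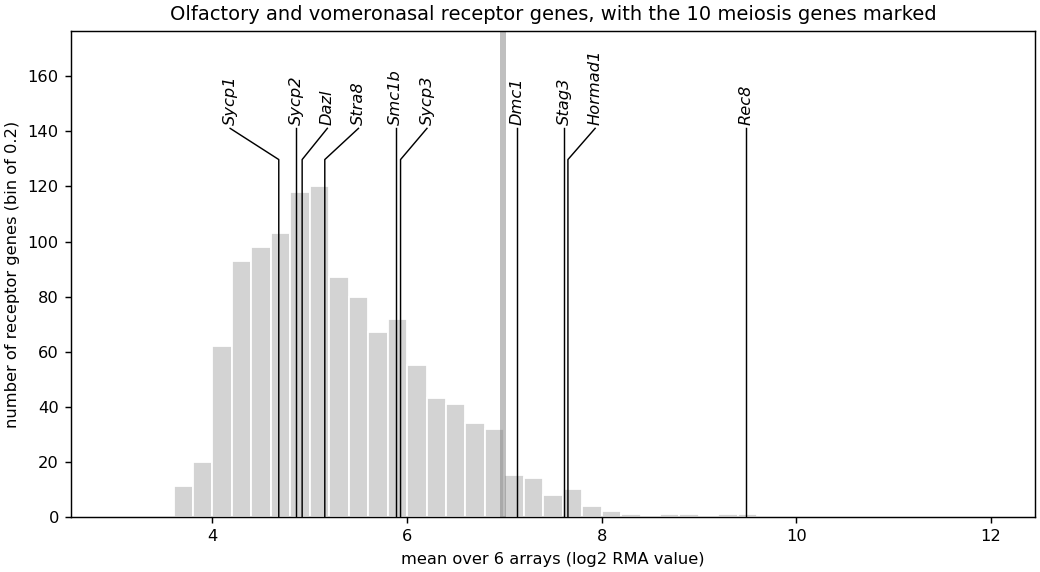
Number of receptor genes (vertical axis, bins of 0.2) by their mean log2 RMA value over 6 arrays (horizontal axis), with vertical lines at the mean of each of the 10 meiosis genes and the background cutoffs in grey. Sycp1, Sycp2, Dazl and Stra8 sit in the bulk of the receptor genes and Rec8 to the right of nearly all of them.

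Among the axis and synaptonemal complex genes, Sycp3 showed the largest difference of the 10. It encodes a filament-forming protein of the chromosome axis. Its values were 7.05, 7.06 and 6.20 on naive arrays 1, 2 and 3, and 4.72, 5.43 and 5.13 on primed arrays 1, 2 and 3. The groups did not overlap, although naive array 3 lay below the others of its group. In all, 3 members had groups that did not overlap, against 52.9% of all genes. The group means were 6.77 ± 0.49 and 5.10 ± 0.36 (SD, n = 3), a difference of -1.67 (SE 0.22, limma adjusted p = 6.3e-05), which is 3.19-fold on the RMA scale. Naive arrays 1 and 2 were just above their cutoffs of 7.01 and 6.97 and naive array 3 was under its cutoff of 7.02. The naive mean of Sycp3 was above that of 92.4% of receptor genes and the primed mean above 46.6%. Its difference was larger in size than that of 99.1% of all genes. Differences of the 1194 receptor genes themselves ran from -0.53 to 0.52, with 0 of a size of 1 or more, and 59 of them passed the threshold.

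Sycp2, which encodes the partner of SYCP3 in the axis, lay between 4.83 and 4.94 on naive arrays and between 4.82 and 4.89 on primed arrays. The groups overlapped, with a difference of -0.03 (95% interval -0.15 to 0.09, adjusted p = 0.72). Sycp1, for the transverse filament, lay between 4.65 and 4.77 on naive and between 4.55 and 4.75 on primed arrays. Its groups also overlapped (-0.03, 95% interval -0.17 to 0.11, adjusted p = 0.74). Of the 3 Sycp genes, Sycp3 alone passed, and most receptor genes were brighter than Sycp1 or Sycp2.

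Hormad1 encodes a HORMA domain protein of unsynapsed axes, which monitors pairing. Its values were 7.43, 7.84 and 7.66 on naive arrays and 7.62, 7.64 and 7.73 on primed arrays 1 to 3. All 6 were above the cutoffs and the primed values lay inside the naive range. The difference was 0.02 (SE 0.09, 95% interval -0.17 to 0.22, adjusted p = 0.88). A dimmer Hormad1 probe set, at 4.34 in naive and 4.27 in primed cells, did not pass either (-0.06, adjusted p = 0.50 when all single-gene probe sets were fitted together). With the mean of both probe sets in place of the brighter, Hormad1 was in background in both groups too.

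Among the members that encode meiotic cohesin subunits, Rec8 alone passed. Rec8, which encodes the kleisin subunit that closes the meiotic cohesin ring, was at 8.94, 8.71 and 8.84 on naive arrays 1 to 3 and at 10.20, 10.15 and 10.07 on primed arrays 1 to 3. Every primed array lay more than 1 log2 unit above every naive array. The means were 8.83 ± 0.12 and 10.14 ± 0.06 (SD, n = 3), a difference of 1.31 (SE 0.07, limma adjusted p = 4.0e-08), or 2.48-fold. Its size exceeded that of 98.2% of all genes. Rec8 was the only member well clear of the receptor genes, with 99.7% of them below its naive mean and all 1194 below its primed mean.

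Stag3, for the meiotic STAG subunit, had values of 7.42, 7.53 and 7.64 on naive and of 7.63, 7.77 and 7.69 on primed arrays 1 to 3. The highest naive value lay just above the lowest primed value. The difference of 0.17 (SE 0.07, 95% interval 0.02 to 0.31, before adjustment) did not pass (adjusted p = 0.061). It passed after quantile normalization (0.19, adjusted p = 0.023), without naive replicate 3 (0.22, adjusted p = 0.025) and without primed replicate 1 (0.20, adjusted p = 0.049), over a range of adjusted p from 0.023 to 0.27. Smc1b, for the meiotic SMC1 subunit, was at 5.90 ± 0.09 in naive and 5.87 ± 0.12 in primed cells (SD, n = 3). It was in background throughout, and its groups overlapped (-0.03, 95% interval -0.19 to 0.12, adjusted p = 0.75).

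Dmc1, the gene of the meiotic recombinase, was at 7.84, 7.79 and 7.67 on naive arrays and at 6.54, 6.37 and 6.60 on primed arrays 1 to 3. All naive values were above and all primed values below the cutoffs. The means were 7.77 ± 0.09 and 6.50 ± 0.12 (SD, n = 3), a difference of -1.26 (SE 0.07, limma adjusted p = 8.2e-08), which is 2.40-fold. The naive mean exceeded 98.9% of receptor genes and the primed mean 88.1%. The value for primed cells lies in the range of compressed values, as that of Sycp3 does.

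The regulators of germ cell competence and meiotic entry were both at background. Dazl was at 4.92, 5.02 and 4.90 on naive arrays and at 4.89, 4.86 and 4.95 on primed arrays 1 to 3. Its difference was -0.04 (95% interval -0.17 to 0.08, adjusted p = 0.58). Stra8 was at 5.20, 5.22 and 5.10 on naive arrays and at 5.09, 5.15 and 5.16 on primed arrays 1 to 3. Its difference was -0.04 (95% interval -0.16 to 0.08, adjusted p = 0.61). Both lay near the middle of the receptor genes, whose median was 5.11 to 5.17 on the 6 arrays.

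**Figure D3:**
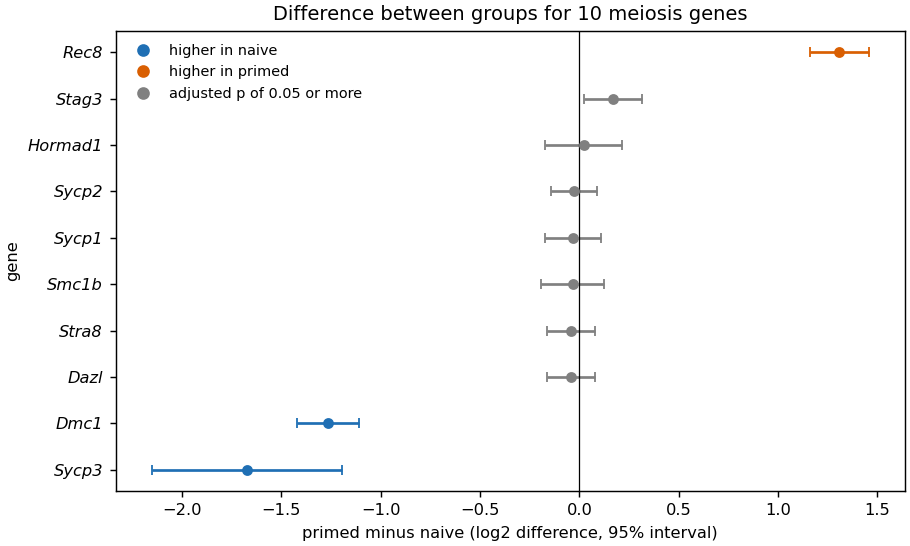
Difference between groups (horizontal axis, primed minus naive, log2) of each meiosis gene (vertical axis), with the 95% interval from limma before adjustment as a bar. Sycp3 (-1.67) and Dmc1 (-1.26) lie to the left of 0, Rec8 (1.31) to the right, and the other 7 between -0.04 and 0.17.

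Other genes of the meiotic pathway were read from 4 lists of 55 genes, of which 48 were measured. Naive cells had the higher level for 13 of these and primed cells for 8, while 27 did not pass. Over all genes the shares were 22.7% higher in naive and 21.8% higher in primed cells. The balance turned with the scaling: 9 had the higher level in naive and 12 in primed cells after quantile normalization, and 18 and 6 with arrays centred on their medians. Their median difference was -0.03. In background in both groups were 27 of the 48, against 26.9% of all genes. Of these 27, Six6os1, Hormad2, Rad21l, Spo11, Mael and Gtsf1 passed. Among other genes of the axis and synaptonemal complex, 3 of 9 passed with the higher level in naive cells and 1 with the higher level in primed cells, with a median of 0.02 and 7 of the 9 in background in both groups. After quantile normalization these counts were 3 and 3. Six6os1 (4930447C04Rik), for a central element protein, was at 6.39, 6.57 and 6.39 on naive and at 4.83, 5.13 and 5.08 on primed arrays 1 to 3. These groups did not overlap and differed by -1.44 (adjusted p = 9.6e-08), at levels under the cutoff throughout, as with the primed values of Sycp3. Trip13, for an ATPase that removes HORMAD proteins from axes and also serves the mitotic checkpoint, differed by -0.54, and Hormad2, in background in both groups, by -0.47. Rad21l, for another meiotic kleisin, was higher in primed cells by 0.47, in background in both groups, as Rec8 was higher there.

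Of 16 recombination genes, naive cells had the higher level for 3, primed cells for 3, and 10 did not pass (median -0.0064). These counts lie near the shares over all genes, 22.7% higher in naive and 21.8% higher in primed cells. With arrays centred on their medians 6 had the higher level in naive and 3 in primed cells. Ccnb1ip1, for a ubiquitin ligase needed for crossovers, fell from 11.65 in naive to 10.43 in primed cells (-1.22, adjusted p = 3.6e-08). Mlh3 (0.81) and Msh5 (0.55), for mismatch repair family proteins that act at crossovers, were higher in primed cells. The values of Mlh3 were 8.63, 8.76 and 8.63 on naive and 9.62, 9.41 and 9.41 on primed arrays 1 to 3, with no overlap. Spo11, for the enzyme that makes the breaks on which DMC1 acts, was at 6.04 in naive and 5.62 in primed cells, in background in both. That gene passed (-0.42), as did Prdm9 (0.36), for the methyltransferase that places those breaks.

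In the list of telomere, kinetochore and maturation genes the 5 genes of 9 that passed had sizes of at most 0.29, 2 with the higher level in naive and 3 in primed cells (median 0.06). The leading genes were Fbxo43 (0.29, with naive cells in background), Kash5 (0.22) and Sgo2a (-0.20), and without naive replicate 3 there was 1 gene higher in primed cells. The call for Kash5 was lost there and when arrays were centred on their medians, which also left 1 gene higher in primed cells, while quantile normalization left 1 higher in naive cells. Among genes of meiotic entry and the germ line, 6 of 14 passed, 5 of them with the higher level in naive cells and 1 with the reverse (median -0.11). The counts of both lists stand beside shares of 22.7% (naive) and 21.8% (primed) of all genes. Tdrkh, for a piRNA pathway protein, was higher in primed cells by 3.08. Boll, which encodes an RNA-binding protein of the same family as DAZL, was at 8.12, 8.33 and 8.24 on naive and at 5.81, 5.74 and 5.73 on primed arrays 1 to 3. The groups differed by -2.47 (adjusted p = 2.1e-10) and did not overlap, with primed cells in background, while Dazl was in background in both. Nanos3 differed by -0.22, a call lost without naive replicate 3 or primed replicate 3. The other 3 genes higher in naive cells, Mael, Dnd1 and Gtsf1, differed by -0.15 to -0.18, none of which passed after quantile normalization, and the count of 5 came to 2 there (with 2 higher in primed cells), to 1 without naive replicate 3 and to 2 or 3 without any other array.

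**Figure D4:**
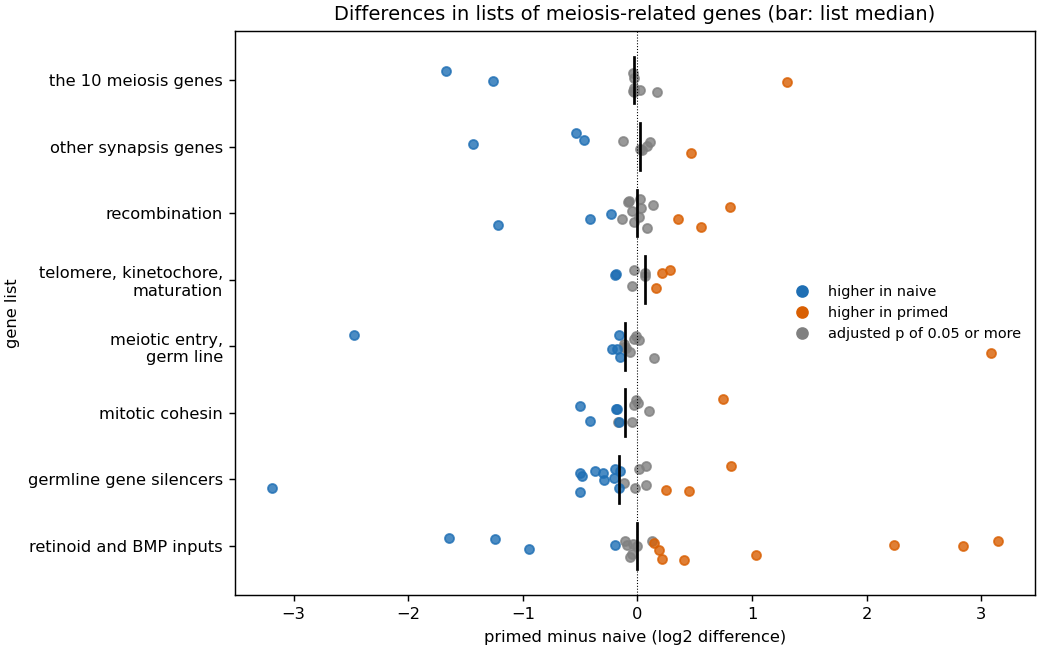
Differences (horizontal axis, primed minus naive, log2) of the 10 meiosis genes and of 7 lists of genes, marker lists not shown (vertical axis), with the list median as a black bar, genes past the threshold in blue (higher in naive) or orange (higher in primed) and others in grey. Medians lie between -0.16 and 0.06, and the lists hold genes on both sides of 0.

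A further list held genes for the mitotic cohesin, some of whose subunits are replaced by meiotic ones in germ cells, and for its regulators. They were above background in both groups in 12 of 12 cases. Of the 12, naive cells had the higher level for 5 and primed cells for 1 (median -0.11), against 22.7% and 21.8% of all genes. After quantile normalization 2 were higher in naive cells, and 2 or 3 without naive replicate 2 or 3 or primed replicate 2 or 3. Stag1, the mitotic counterpart of Stag3, differed by -0.50, and Stag2 by -0.03 (adjusted p = 0.69). Rad21, the counterpart of Rec8, was at 12.13 ± 0.03 and 12.08 ± 0.03 (SD, n = 3) and did not pass (-0.05, adjusted p = 0.45), where Rec8 was higher in primed cells by 1.31. Smc1a, the counterpart of Smc1b, differed by -0.18 (adjusted p = 0.043), a call lost after quantile normalization, with the replicate block and without naive replicate 2 or 3 or primed replicate 2 or 3. Wapl, for a protein that releases cohesin, differed by -0.41 and Esco2, for an enzyme that stabilises it, by 0.75.

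Of 19 genes known to take part in silencing germline genes, 11 passed with the higher level in naive cells, where Sycp3 and Dmc1 were also higher. In the other direction 3 passed, and 5 passed in neither (median -0.16). Of all genes 22.7% were higher in naive and 21.8% higher in primed cells. The counts of 11 and 3 came to 8 and 3 after quantile normalization and to 8 and 3 without primed replicate 3. Dnmt3l, the cofactor of de novo DNA methylation, differed by -3.19, with primed cells in background, and Dnmt3a, a de novo methyltransferase, by 0.82. Dnmt3b differed by -0.50. Of the Polycomb complex named above, L3mbtl2 (-0.50), Max (-0.48), E2f6 (-0.37) and Pcgf6 (-0.16) were higher in naive cells, while Ring1 was higher in primed cells (0.45). Mga (0.07, adjusted p = 0.42), Rnf2 (-0.12, adjusted p = 0.087) and Rybp (-0.02, adjusted p = 0.79) did not pass. The call for Pcgf6 was lost after quantile normalization, with the replicate block and without naive replicate 3 or primed replicate 1 or 3. With a size of at least 0.5 also required, 1 silencing gene passed in each direction. Whether these genes bear on the levels of Sycp3, Dmc1 or Rec8 was not tested.

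Genes that feed retinoic acid and BMP signals, which induce Stra8 and act with it in germ cells, passed in 12 of 19 cases. Of these, 8 had the higher level in primed cells and 4 in naive cells (list median -0.0079). The shares over all genes were 21.8% (primed) and 22.7% (naive), so the count of 4 lies near its share. With arrays centred on their medians the list split into 6 and 6. Rarb, for a retinoic acid receptor, was higher in primed cells by 3.15, Crabp1 and Crabp2, for retinoic acid carriers, by 2.84 and 2.24, and Cyp26a1, for the enzyme that degrades retinoic acid, by 1.04. Bmp4 (-1.64), Msx2 (-1.24) and Bmp2 (-0.95, with primed cells in background) were higher in naive cells. Of the genes for enzymes that make retinoic acid, none was higher in primed cells. Aldh1a2 was higher in naive cells (-0.20), in background in both groups, a call lost after quantile normalization. Aldh1a1 (-0.11) and Aldh1a3 (-0.04) did not pass. Rec8, which retinoic acid is known to induce in germ cells, was higher in the same group as Rarb, Crabp1, Crabp2 and Cyp26a1. Stra8 was in background in both groups. The part of retinoid signals in the level of Rec8 was not tested.

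Markers of the cell types that a culture could hold were read beside these values. Their counts are to be set against all genes, of which 22.7% were higher in naive and 21.8% higher in primed cells. All 8 pluripotency markers were above background, 6 of them higher in naive cells, led by Pou5f1 (-1.06), Zfp296 (-1.04) and Tdgf1 (-0.80). Of 12 germ cell markers 7 passed with the higher level in naive cells and 0 with the reverse (3 and 0 without naive replicate 3, 4 and 0 without primed replicate 2, 4 and 1 after quantile normalization). The summed linear signal of the germ cell list was 3304 to 3400 on the naive and 1980 to 2010 on the primed arrays. This sum weighs bright genes most, and Tfap2c, Prdm1 and Dppa3 were the brightest of the list in naive cells (means 10.02, 9.21 and 8.99). They also had the list's largest differences: Dppa3 (-2.81, with primed cells in background), Prdm1 (-1.71) and Tfap2c (-0.72). The sum was not repeated without them. Of the 12 germ cell markers, 5 (Ddx4, Mael, Tdrd1, Prdm14 and Gtsf1) were in background in both groups. Nanos3, Dnd1 and Piwil2, like Prdm1 and Tfap2c, were above the cutoff on every array. Ddx4 was at 5.64 and 5.78, with a difference of 0.14 (adjusted p = 0.063), which passed with primed cells higher after quantile normalization, with array weights and without primed replicate 1. Of 13 fibroblast and feeder markers 5 passed with the higher level in naive cells and 2 with the reverse, with summed linear signals of 3064 to 3148 and of 3527 to 3617, and Postn, Lum, Prrx1 and Fap were in background in both groups. Dcn, for a matrix proteoglycan of fibroblasts, differed by 2.89, Col1a1, for a collagen chain, by -0.76 and Twist1 by -0.49. Without Dcn, left out after its value was seen, the sums were 2916 to 2986 on the naive and 2350 to 2479 on the primed arrays. In these bulk cultures fewer cells that express a gene and less RNA per cell cannot be told apart, and the part of germ cell or feeder markers in the differences of Sycp3, Dmc1 and Rec8 was not tested.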

How the data were processed

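RNA was measured on 6 Affymetrix mouse gene arrays. The deposited values are log2 expression made by the authors with RMA in Partek 6.6, per the submitters' processing notes. For its options and the genome build: not given in the sources used here. Array medians over 35556 probe sets were 7.77 to 7.83. Probe sets were named from GEO's platform annotation: 21789 had 1 symbol, 1621 several (not used) and 12146 none. Of the first kind 21698 matched RefSeq (GRCm38.p6) by gene ID. The brightest probe set stood for each gene. Groups were compared with limma 3.58.1 (R 4.3.3; lmFit, eBayes, no covariate, two-sided), Benjamini-Hochberg adjusted over 19938 genes, threshold 0.05. The script was tested on simulated data. Arrays of 1 group correlated at r of 0.998 to 0.999 across genes.

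Members and lists were chosen with earlier results of these data known. The text names all members, the 3 genes of each list with the largest difference among those past the threshold, 6 fixed counterparts (1 is not reported here), and others picked after their values were seen. For 7 list genes no single-symbol probe set was found. Their number, 3 per group, limits the precision of the arrays' means. Alternatives were other scalings, filters, probe set rules, variance models, thresholds and cutoffs, the replicate number as a block, and leaving out each array.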

Additional observations from a re-analysis of the deposited data

How the results depend on the processing

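Sycp3 and Dmc1 were higher in naive and Rec8 in primed cells under every alternative in which they were tested, with differences of -1.96 to -1.44, -1.33 to -1.20 and 1.24 to 1.36. No called member was reversed. After quantile normalization 2 members were higher in primed cells, the second being Stag3 (0.19). Above the 40th percentile of mean expression 2 members, Rec8 and Hormad1, were left (Sycp3 and Dmc1 were removed), so that 0 were higher in naive cells by limma, and 7 genes of the 4 other meiosis lists were higher in naive; fewer genes were tested there. At an adjusted p under 0.01 those lists held 8 genes higher in naive cells. With a size of at least 0.5 as well as the adjusted p under 0.05 they held 4 higher in naive and 3 in primed cells, and all genes 1286 and 1480. With the 99th percentile as cutoff 8 members were in background. Leaving out each array gave 1 to 2 members higher in primed cells, 0.11 to 0.22 for Stag3, and 8 to 12 genes of the other lists higher in naive (13 with all arrays, 8 without naive replicate 3). Of 320 recomputed counts of single lists, 51 moved by over 1.5 times; the cause was not tested.

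With the replicate block, 4344 genes passed with the higher level in naive cells and 4172 with the reverse, and no member's call changed. Deviations from the group means of same-numbered arrays correlated across genes at r of -0.11, 0.0015 and -0.021. No array correlated best with its own number. With 3 arrays per group these correlations cannot show whether the replicates were paired. No probe set with several symbols names a member, so that alternative gave no other value. The levels of Sycp1, Sycp2, Smc1b, Dazl and Stra8 lay under the receptor cutoff, as did 5354 genes in all, of which 616 passed the threshold.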
